A study of Mus musculus with 12 samples.

Results

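The comparison was between whole tibialis anterior (TA) muscle taken 8 days after injury from mice of the genotype used to deplete regulatory T (Treg) cells and the same muscle taken 4 days after injury from mice without that genotype, with every mouse given amphiregulin (AREG). It used 6 of the 12 arrays of the series, all that carry both labels: 3 titled day 8, Foxp3-DTR+ and AREG, and 3 titled day 4, Foxp3-DTR- and AREG. Of 24922 transcript clusters (probe sets) on the array, the 21425 with exactly 1 gene symbol were kept, and where a gene had several the one with the highest mean over the 12 arrays stood for it, which gave 19752 genes. All mice were C57BL/6 and 8 weeks old. All received cardiotoxin, a snake venom protein that destroys muscle fibres, in the TA on day 0, and diphtheria toxin on alternate days from then to dissection. Diphtheria toxin kills mouse cells only where they carry the diphtheria toxin receptor (DTR), which in Foxp3-DTR+ mice is driven by Foxp3, the defining transcription factor of Treg cells; Foxp3-DTR- mice received the toxin without the receptor. AREG, a ligand of the epidermal growth factor receptor, was injected into the muscle on day 0 and then into the abdomen on alternate days. The other 6 arrays are of the same 2 combinations of day and genotype with PBS, the vehicle, in place of AREG, and they share no array with the comparison. Day and genotype changed together, so the effects of time and of Treg depletion cannot be told apart in any value that follows. The labels do not say whether the 3 arrays of a group are of separate animals, and the p-values measure only the spread between these arrays.

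After cardiotoxin, muscle is cleared by macrophages and rebuilt within days by myoblasts, which fuse into new fibres, while fibroblast-like cells lay down a temporary matrix. Treg cells enter injured muscle and are known there as a source of AREG and as a brake on T and natural killer (NK) cells. The cytokine of those cells, interferon-gamma, acts on a well-known set of target genes: GTPases that attack intracellular pathogens, chemokines that attract T cells, and the machinery that presents antigen.

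The 142 genes called different (limma, Benjamini-Hochberg adjusted p under 0.05 over all 19752 genes, called or passing in what follows) were 0.719% of those tested. Higher at day 8 were 104 (0.527%), and lower were 38 (0.192%). These shares of all genes go with every count of called list members below. Rises were from 0.56 to 5.02 on the log2 scale with a median of 1.27, and falls were from 0.53 to 1.72 with a median of 0.79. The size was at least 1 in 74 of the rises and 16 of the falls. In all 142 the 3 arrays of one group lay wholly above the 3 of the other, which was also so for 13.2% of all genes. Where groups of a called gene are said below not to overlap, this holds for every call and is no added support. The median change over all genes was -0.06. The change with PBS, measured on the other 6 arrays, had 463 calls, 2.34% of the genes, with 236 higher (1.19%) and 227 lower (1.15%).

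The tissue label was borne out by fibre genes: Acta1, skeletal actin, had intensities of 14340, 15300 and 15290 at day 4 and 14310, 13970 and 14750 at day 8. Foxp3 itself was at 106, 91.4 and 94.9 at day 4 and at 95.6, 108 and 101 at day 8 (log2 change 0.06 ± 0.11 SE, limma adjusted p = 0.874), below the median level of all genes, and the groups overlapped, so these arrays did not show the depletion that the genotype and toxin are meant to give. Within the AREG groups 2 arrays stood apart. Day 8 replicate 3 correlated with replicates 1 and 2 at 0.977 and 0.986 across genes, against 0.993 between replicates 1 and 2. Day 4 replicate 1 did so at 0.983 and 0.986, against 0.995 between replicates 2 and 3. Without day 8 replicate 3 there were 458 calls, without day 4 replicate 1 there were 79, and without both there were 415.

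The interferon-inducible GTPases had the highest median change of the 47 gene lists examined. All 10 measured of 19 listed were called higher, against 0.527% of all genes, with a median log2 change of 2.36. These proteins coat and break the compartments in which pathogens hide; the family of immunity-related GTPases (Iigp1, Irgm1) and that of guanylate-binding proteins (the Gbp genes) were both represented. Iigp1 had intensities of 110, 244 and 210 at day 4 and of 4219, 3841 and 4154 at day 8. Irgm1, which controls the other members of its family, went from 146, 222 and 227 to 1763, 1726 and 2910. Gbp4 went from 164, 314 and 277 to 1500, 1669 and 1770. In each of these genes every day 8 array was far above every day 4 array. The log2 changes were 4.52 ± 0.23 (SE, n = 3 per group, adjusted p = 4.21e-08), 3.41 ± 0.24 (adjusted p = 2.25e-06) and 2.76 ± 0.25 (adjusted p = 2.18e-05), or 22.9-fold, 10.6-fold and 6.78-fold. Gbp7 rose by 2.49, Gbp2b by 2.44, Gbp3 by 2.28, Gbp5 by 2.21, Gbp8 by 2.06, Gbp11 by 1.99 and Gbp9 by 1.36. All 10 were also called with each AREG array left out in turn.

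Genes outside the lists, chosen after their values were seen, belong to the same families by their RefSeq synonyms. Gm12185, with the synonym Irgb2b1, had the largest rise of all genes tested: from 40.4, 35.4 and 45.7 at day 4 to 1647, 1199 and 1132 at day 8, a log2 change of 5.02 ± 0.27 (32.5-fold, adjusted p = 4.21e-08). Gm12250, with the synonym Irgb10, rose by 3.48, Gm4951 (Ifgga2) by 3.03 and Gm4841 (Ifgga3) by 2.95. Gbp2, Gbp6, Gbp10, Irgm2, Igtp, Tgtp1, Tgtp2, Gvin1 and Ifi47 had no cluster of their own and were not analysed here. Genes of these families are similar in sequence, so the separate values of close relatives are uncertain.

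**Figure D1:**
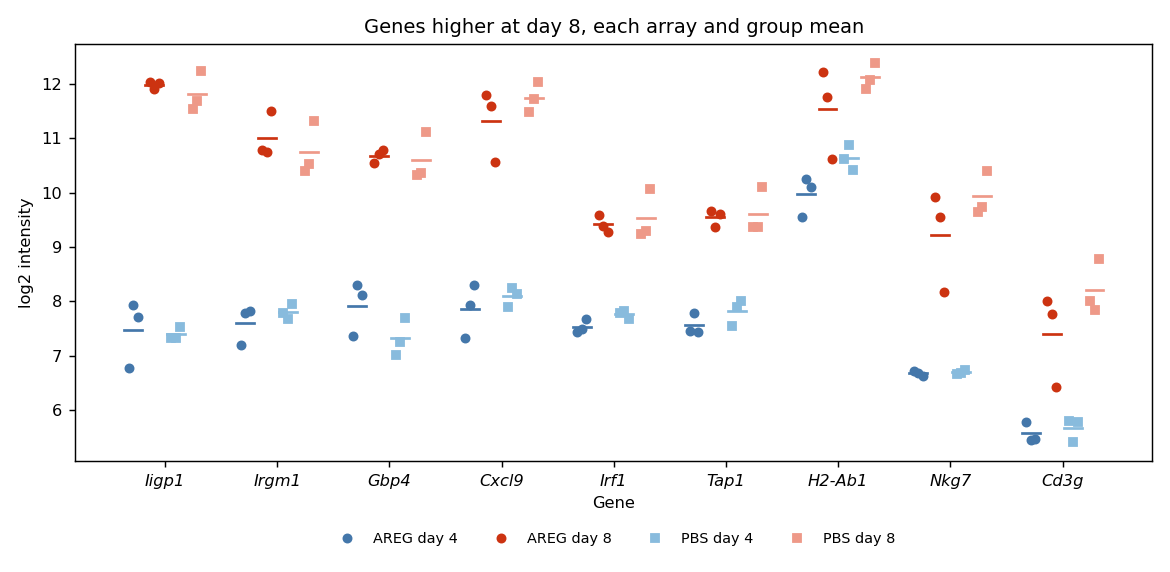
Log2 intensity of 9 genes called higher at day 8 with AREG, in each of the 12 arrays. Circles are AREG arrays and squares PBS arrays, each symbol is 1 array, and bars are means of 3 arrays; in all 9 genes the 3 AREG day 8 arrays lie above the 3 AREG day 4 arrays, and for H2-Ab1, Nkg7 and Cd3g 1 day 8 array (replicate 3, the rightmost) lies well below the other 2.

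Of 17 measured genes on a list of other interferon-gamma targets, 10 were called higher and none lower (median 0.80). Over all genes 0.527% were called higher and 0.192% lower. Cxcl9, a chemokine that draws activated T cells through the receptor CXCR3, was at 161, 244 and 315 at day 4 and at 3548, 3098 and 1519 at day 8, a log2 change of 3.46 ± 0.28 (adjusted p = 5.79e-06). Cxcl10, a chemokine of the same receptor, went from 148, 140 and 143.1 to 712, 484 and 541, a change of 1.99 ± 0.26 (adjusted p = 0.00124). Cd274, which encodes the inhibitory ligand PD-L1, went from 185, 229 and 242 to 1006, 1162 and 2457, a change of 2.71 ± 0.33 (adjusted p = 0.000647). Irf1, the transcription factor at the head of much of the response, went from 173, 180 and 205 to 773, 666 and 621, a change of 1.88 ± 0.18 (adjusted p = 4.19e-05). A second cluster of Irf1, not used for the call, changed by 0.52. The groups did not overlap in any of the 4 genes, and the highest day 8 value of Cd274 was in replicate 3. The others called were Gzmb (1.89), Fgl2 (1.45), Irf8 (1.21), Il18bp, a secreted blocker of IL-18 (0.95), Batf2 (0.72) and Icam1 (0.66). Ifng itself was at 93.5, 69.5 and 76.2 at day 4 and at 130, 132 and 91.4 at day 8 (0.55 ± 0.21, adjusted p = 0.352); it is on the list of cytotoxic and NK cell genes. Calls on this list fell to between 5 and 6 with any AREG array but day 8 replicate 3 left out, and rose to 12 without that array.

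Among 10 measured chemokines that attract T cells, 4 were called higher, against 0.527% of all genes. They were Cxcl9 and Cxcl10, which are on both lists, Ccl5 and Ccl17. Ccl5, made by T and NK cells, went from 240, 299 and 349 to 2383, 1917 and 634, a change of 2.28 ± 0.37 (adjusted p = 0.00646). Ccl17, made by dendritic cells, went from 86.9, 96.1 and 78.5 to 334, 316 and 168 (1.58 ± 0.29, adjusted p = 0.0136). The call of Ccl5 was lost without day 4 replicate 1, and that of Ccl17 without any array of the AREG groups but day 8 replicate 3 and day 4 replicate 2. In both, day 8 replicate 3 was the lowest of its group and still above every day 4 array. Cxcl12, Cxcl13, Cxcl11, Ccl19, Ccl22 and Cxcl16 had changes between -0.29 and 0.64 and did not pass.

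The genes that load peptides onto MHC class I rose together: 9 of 13 measured were called higher, against 0.527% of all genes. All 13 had a change above 0, and the median was 0.94. They cover the steps of that route in order. Psmb8, Psmb9 and Psmb10, the catalytic subunits of the immunoproteasome, which cuts proteins into peptides, rose by 1.495, 1.33 and 2.13, and Psme1, a subunit of its activator, rose by 1.17. Tap1, of the transporter that carries peptides into the endoplasmic reticulum, was at 176, 220 and 173 at day 4 and at 807, 664 and 777 at day 8, a change of 1.99 ± 0.19 (adjusted p = 3.71e-05). Erap1, which trims the peptides, rose by 0.94, and Tapbp, which holds the receptor open for them, by 0.85. B2m, the light chain, was at 4360, 5358 and 5245 and then 10710, 8604 and 8185, a change of 0.87 ± 0.14 (adjusted p = 0.00454). H2-Q4, a non-classical heavy chain, rose by 1.67. The groups did not overlap in any of the 9, and between 8 and 11 of the 13 were called whichever AREG array was left out. Tap2 (0.58), Psme2 (0.68), H2-M3 (0.47) and Nlrc5 (0.13) did not pass, and the classical heavy chains H2-K1 and H2-D1 were not analysed here.

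MHC class II, which presents antigen to CD4 T cells, had 5 of 8 measured genes called higher (median 1.25), against 0.527% of all genes. H2-Ab1 was at 754, 1215 and 1102 at day 4 and at 4791, 3481 and 1583 at day 8, a change of 1.57 ± 0.30 (adjusted p = 0.0199). H2-Aa, its partner chain, went from 1170, 1423 and 1320 to 5257, 3520 and 1859, a change of 1.32 ± 0.27 (adjusted p = 0.029). H2-DMa, a peptide editor, rose by 1.32, Cd74, the invariant chain, by 1.28 (1485, 1902 and 1708 to 6178, 4513 and 2502), and H2-Eb1 by 1.21. The day 8 arrays fell into the same order in all 5 genes, with replicate 1 highest and replicate 3 lowest. These calls rested on the set of arrays: 6 passed without day 8 replicate 3, 2 without day 4 replicate 2, 1 without day 8 replicate 1, and none when any of day 8 replicate 2, day 4 replicate 1 or day 4 replicate 3 was left out. Ciita, the activator of class II transcription, changed by 0.73 (adjusted p = 0.18), and H2-Oa and H2-Ob, typical of B cells, by 0.00 and -0.15.

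Of 22 measured genes of the type I interferon response, 8 were called higher and none lower, against 0.527% and 0.192% of all genes. A change above 0 was seen in 21 of the 22 (median 0.49). The called genes were Ifit3 (1.67), Ifit1 (1.15), Irf9 (1.11), Rtp4 (1.10), Xaf1 (0.92), Stat2 (0.85), Ifih1 (0.81) and Usp18 (0.78). Ifit3 went from 209, 451 and 269 to 830, 848 and 1150, and day 4 replicate 2 had the highest value of its group for each of Ifit3, Ifit1 and Rtp4. Irf9 and Stat2 encode transcription factors of the interferon response. Among the 14 that did not pass, Mx1 (0.03), Mx2 (-0.18), Oas2 (0.29), Oas3 (0.01) and Oasl1 (0.01) lay below the list median. Between 3 and 10 of the 22 were called with 1 AREG array left out, the fewest without day 4 replicate 1 and the most without day 4 replicate 2; the call of Ifit3 was lost in the first case.

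**Figure D2:**
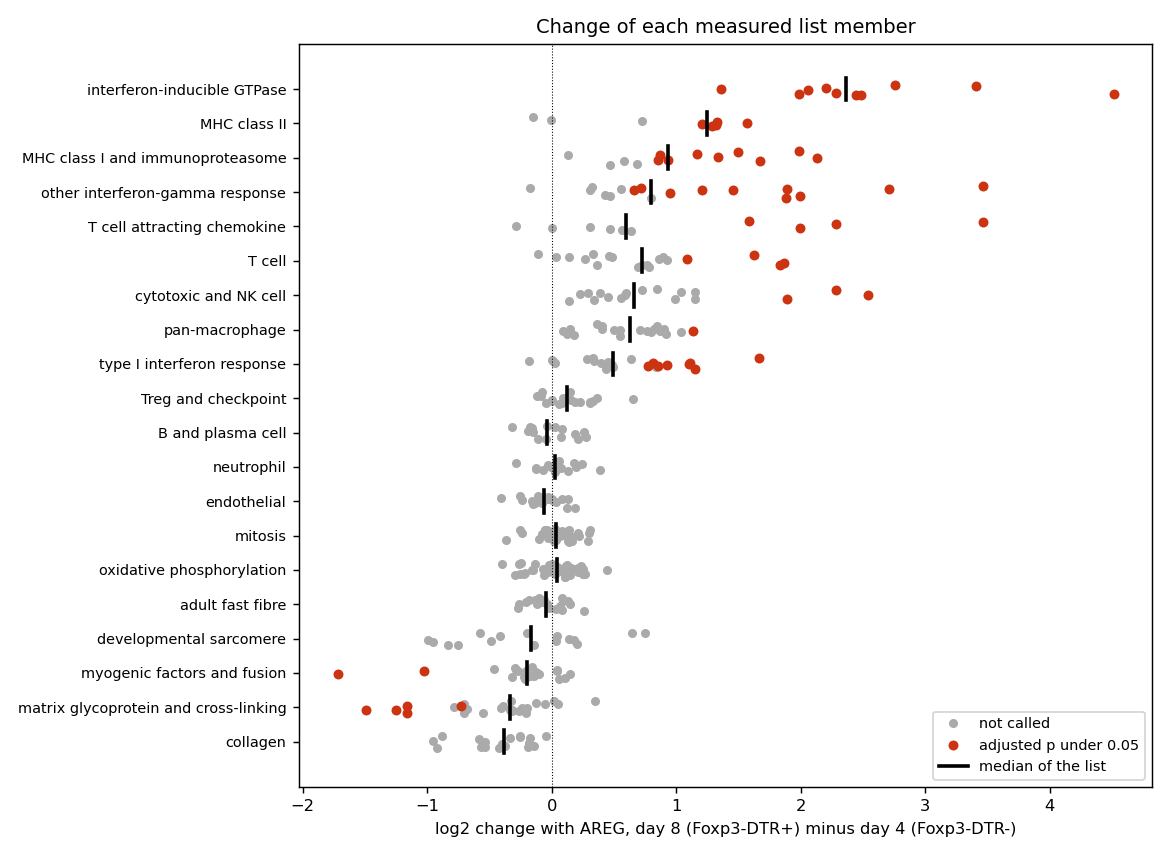
Log2 change with AREG (day 8, Foxp3-DTR+, minus day 4, Foxp3-DTR-) of each measured member of 20 gene lists, 1 dot per gene. Red dots passed at an adjusted p under 0.05, grey dots did not, and black bars are list medians; all 10 GTPase genes lie at 1.36 or above, while the endothelial, mitosis and oxidative phosphorylation genes scatter about 0.

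Some genes that mark T cells and cytotoxic cells were called higher at day 8. T cell genes had 4 of 19 called, against 0.527% of all genes, with 18 of 19 above 0 and a median of 0.73. Only 5 of the 19 were at or above the median level of all genes, and the called Cd3g, Cd8b1 and Cxcr6 were below it. Cd3g, a chain of the T cell receptor complex, was at 55.0, 43.9 and 44.5 at day 4 and at 257, 219 and 86.3 at day 8, a change of 1.83 ± 0.32 (adjusted p = 0.0101). Cd8b1, of the CD8 coreceptor, went from 74.1, 58.1 and 56.7 to 300, 201 and 120 (1.63 ± 0.26, adjusted p = 0.00605), Cxcr6, a receptor of resident T cells, rose by 1.87 and Cd3e by 1.08. Cd8a changed by 0.93 (adjusted p = 0.127) and Cd4 by 0.48 (adjusted p = 0.526). In each named T cell gene replicate 3 was the lowest of the day 8 arrays. In whole muscle, more cells of a type and more RNA per cell cannot be told apart.

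The list of cytotoxic and NK cell genes had 3 of 18 called, against 0.527% of all genes, and all 18 were above 0 (median 0.66). Only 2 of the 18 were at or above the median level of all genes, and the called Gzmb was below it. Nkg7, a protein of cytotoxic granules, was at 105, 102 and 99.3 at day 4 and at 975, 751 and 287 at day 8, a change of 2.54 ± 0.32 (adjusted p = 0.000722). Gzmb, the protease granzyme B, went from 62.8, 53.9 and 58.2 to 336, 274 and 109 (1.89 ± 0.33, adjusted p = 0.01), and Ccl5 is the third. The day 4 arrays lay within a narrow band in Nkg7 and Gzmb, with SDs of 0.04 and 0.11 on the log2 scale. The day 8 arrays were more spread, with SDs of 0.93 and 0.87. Ncr1, which marks NK cells, changed by 1.04 (adjusted p = 0.0733), Gzma by 0.99, Ifng by 0.55 and Prf1 by 0.34. Without day 8 replicate 3, 12 T cell and 11 cytotoxic genes passed; without any other single AREG array between 2 and 3 of each did. Of the calls named, Cd3e was lost without any one of those 5 arrays, Cd3g without day 8 replicate 2 or any day 4 array, and Gzmb without day 8 replicate 2, day 4 replicate 1 or day 4 replicate 2. Of 18 genes of Treg cells and immune checkpoints none passed (median 0.12), with Il2ra at 0.31, Ctla4 at 0.09 and Gata3, the largest, at 0.65. None of the B cell genes passed, and Ms4a1, which encodes CD20, was at 29.8, 31.5 and 29.1 at day 8, below the median level of all genes.

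Macrophage genes gave few calls and a wide spread between day 8 arrays. All 20 pan-macrophage genes were above 0 (median 0.63), but only Aif1 passed, from 53.3, 66.2 and 55.7 to 194, 132 and 81.0 (1.14 ± 0.23, adjusted p = 0.0335). Adgre1, which encodes F4/80, was at 275, 463 and 370 at day 4 and at 1190, 827 and 311 at day 8 (0.90 ± 0.36, adjusted p = 0.388), so that replicate 3 lay within the day 4 range and the others above it. Cd68 (0.14), Csf1r (0.13) and Lyz2 (0.40) did not pass. Without day 8 replicate 3, 12 of the 20 passed, and without any other AREG array none did. Ccl8, a chemokine of resident macrophages, rose by 2.60 ± 0.43 (adjusted p = 0.00805), from 84.2, 134.3 and 120 to 1397, 878 and 244, and Retnla, a secreted marker of alternative activation, by 1.55 ± 0.27 (adjusted p = 0.01), from 462, 535 and 545 to 2463, 1452 and 943. They were the 2 called of 19 in their list, both lost without day 4 replicate 1, and Mrc1 (0.37), Cd163 (-0.03), Lyve1 (0.16) and Timd4 (0.23) did not pass. Ccl7, which draws monocytes, rose by 1.10 and was the 1 of 19 monocyte genes called, and its call was lost without any AREG array but day 8 replicate 3. C4b was the 1 of 17 complement genes called (0.97). It was lost without day 8 replicate 1, day 8 replicate 2 or day 4 replicate 1, and 9 of the 17 passed without day 8 replicate 3. The dendritic cell list had 2 of 15 called, Ccl17 and Irf8 (median 0.08). None of 20 genes of repair macrophages passed, with Gpnmb at -0.50 and Trem2 at -0.56.

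Day 8 replicate 3 was the lowest of its group for most genes of these cells. As means over a list, minus the mean of the AREG day 4 arrays on the log2 scale, the GTPases were at 2.58, 2.54 and 2.53 in day 8 replicates 1, 2 and 3. That evenness is of the mean: replicate 3 was the lowest in 5 of the 10 genes and the highest in 4, with Gbp7 at 1534, 1803 and 3948 and Gbp2b at 479, 380 and 169. The T cell list was at 1.10, 0.84 and 0.27, the cytotoxic and NK list at 1.35, 1.02 and 0.33, and the pan-macrophage list at 1.23, 0.76 and -0.17. MHC class I genes (1.34, 1.10 and 0.86) and class II genes (1.41, 0.91 and 0.41) had the same order. For macrophage genes replicate 3 lay within the range of the day 4 arrays, which were at -0.22, 0.31 and -0.09. It was the lowest of the 3 arrays in 20 of 20 pan-macrophage genes, 18 of 19 T cell genes and 16 of 18 cytotoxic genes, against 6625 of all 19752 genes. It was the highest for Irgm1, Gbp7, Cd274 and Gm12250. The lists of mesenchymal cells set it apart too: collagen genes were at -0.07, -0.21 and -1.01 in replicates 1 to 3, and genes of fibro-adipogenic progenitors, the matrix-forming cells of muscle, at 0.10, 0.05 and -0.61. Endothelial genes were at -0.22, -0.05 and 0.09. The part of these differences between arrays in the calls was not tested.

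**Figure D3:**
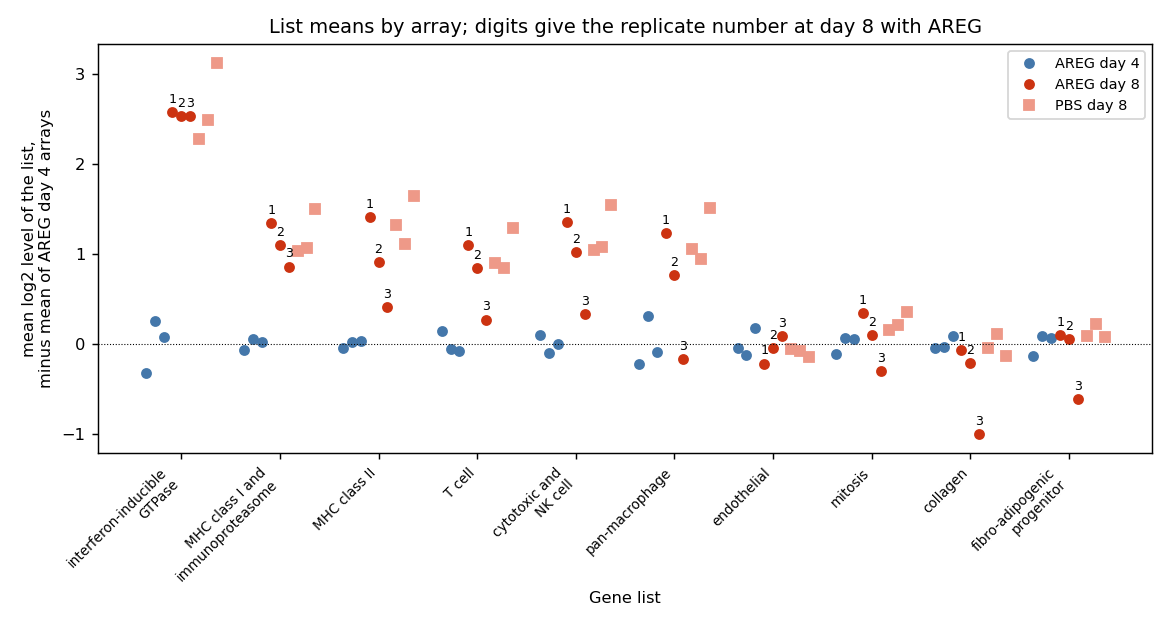
Mean log2 level of 10 gene lists in each array, minus the mean of the 3 AREG day 4 arrays; each symbol is 1 array, blue for AREG day 4, red for AREG day 8 with its replicate number and pale squares for PBS day 8. The 3 red points of the GTPase list lie together at 2.53 to 2.58, and those of the pan-macrophage list run from 1.23 down to -0.17.

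Of the 104 genes called higher, 56 were on a list and 48 on none; those named next, but for Sln at the end, are on none. Ms4a4b and Cd52 rank among the 15 largest rises and BC023105 among the 8 genes of smallest p for the difference from PBS, and the others on no list were chosen after their values were seen. Many are known interferon targets: Parp14 (1.59), Dtx3l (1.30), Parp9 (1.01), Parp10 (0.84) and Parp12 (0.91), of ADP-ribosylation, Samhd1, a nucleotide hydrolase that restricts viruses (1.57), Zbp1, a sensor of nucleic acids (1.09), Trim21 (0.93) and Ifitm3 (0.70). Samhd1 was even within groups, at 723, 978 and 750 and then 2396, 2388 and 2419 (adjusted p = 8.92e-05). Others are genes of lymphocytes or myeloid cells: Ms4a4b (2.21), Cd52 (2.07), Cd226 (1.59), Il2rb, the receptor chain for IL-2 and IL-15 (1.52), Gimap3 (1.37), Ikzf3 (0.88), Fcgr4, an activating Fc receptor (1.92), and Slamf8 (1.502). BC023105 was at 3297, 3521 and 3052 and then 8807, 7888 and 8735 (1.37 ± 0.11, adjusted p = 5.79e-06). Sln, the fibre protein sarcolipin that inhibits the calcium pump, went from 91.1, 90.5 and 107 to 202, 203 and 131 (0.87 ± 0.15, adjusted p = 0.01); it was on 2 of the lists, those of calcium handling and of denervation, in each of which it was the 1 member called. Calls were lost without day 8 replicate 1, day 8 replicate 2, day 4 replicate 1 or day 4 replicate 2 for Sln, without day 4 replicate 1 for Ms4a4b, and without any of day 8 replicates 1 and 2 and day 4 replicates 1 and 3 for Cd52.

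The genes called higher lay in part beside each other in the genome. In the gene order of RefSeq, over the protein-coding genes measured here, 98 of them could be placed, and 16 pairs of called genes were direct neighbours, with 24 genes in such pairs. They were members of the MHC (H2-DMa, Psmb9, Tap1 and Psmb8 in one run, H2-Ab1, H2-Aa and H2-Eb1 in another), of 2 runs of Gbp genes (Gbp5, Gbp7, Gbp3 and Gbp2b, and Gbp8, Gbp9 and Gbp4), of a run of immunity-related GTPases (Gm4951, Gm4841 and Iigp1), of Irgm1 with Gm12185, of Parp14, Dtx3l and Parp9, and of Cd274 with Plgrkt. None of the 38 genes called lower had a called neighbour. Gene families in clusters share sequence and history, and no test was made of these counts.

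Because many of the rises were of listed interferon targets, their promoters were read for the sites of that pathway. RefSeq promoter sequence (assembly GRCm38.p6, 250 bases before to 50 after each start) was held for 72 of the 104 genes called higher, with 82 promoters, and for 26 of the 38 called lower, with 36. The gamma activated site was searched on both strands as TTCNNNGAA, and the core of the interferon-stimulated response element, to which IRF proteins bind, as GAAANNGAA. The first was in 23.2% of the promoters of genes called higher, 2.78% of those called lower and 8.30% of all 32851 promoters. The second was in 34.1%, 8.33% and 8.56%. One or the other was in 51.2% of the promoters of genes called higher and 15.8% of all, with both in 5 of the 82, overlapping in 1. These are matches of letters and not sites of measured binding. The 250 bases before the start are shown for 4 of the risers, an IRG, a GBP, the transcription factor and the chemokine of the results above, and for Chrng, a faller taken up below. Capitals mark matches to the 2 interferon motifs in the first 4 and to the E-box in the fifth. Of the windows read but not shown, those of Gbp2b, Cd274 and the first start of Gbp3 held a match. Those of Psmb9 and of the second starts of Gbp3 and Irf1 held none.

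Irgm1 (chr11:48871421-48871670, minus strand), with overlapping response element cores that begin 30 and 24 bases before the start:
Irgm1: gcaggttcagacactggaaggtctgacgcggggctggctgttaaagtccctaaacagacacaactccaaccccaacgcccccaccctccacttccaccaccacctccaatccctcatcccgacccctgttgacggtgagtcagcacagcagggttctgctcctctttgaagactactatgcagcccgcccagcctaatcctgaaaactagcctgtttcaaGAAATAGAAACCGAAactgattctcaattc
Gbp5 (chr3:142496684-142496933, plus strand), with gamma activated sites that begin 245 and 52 bases before the start and a response element core on the other strand at 164:
Gbp5: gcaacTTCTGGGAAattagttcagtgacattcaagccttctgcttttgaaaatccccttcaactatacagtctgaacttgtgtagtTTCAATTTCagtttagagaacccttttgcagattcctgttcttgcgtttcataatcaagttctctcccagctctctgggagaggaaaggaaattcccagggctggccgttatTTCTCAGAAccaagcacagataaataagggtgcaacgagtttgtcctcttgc
Irf1 (chr11:53769764-53770013, plus strand, the first of 2 listed starts), with a gamma activated site at 90 bases before the start:
Irf1: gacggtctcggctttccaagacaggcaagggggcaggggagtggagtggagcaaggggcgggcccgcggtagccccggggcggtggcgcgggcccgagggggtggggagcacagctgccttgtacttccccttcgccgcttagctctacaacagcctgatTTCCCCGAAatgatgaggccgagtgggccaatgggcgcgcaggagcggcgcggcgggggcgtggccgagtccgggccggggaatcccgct
Cxcl9 (chr5:92328080-92328329, minus strand), with a response element core at 175 bases before the start:
Cxcl9: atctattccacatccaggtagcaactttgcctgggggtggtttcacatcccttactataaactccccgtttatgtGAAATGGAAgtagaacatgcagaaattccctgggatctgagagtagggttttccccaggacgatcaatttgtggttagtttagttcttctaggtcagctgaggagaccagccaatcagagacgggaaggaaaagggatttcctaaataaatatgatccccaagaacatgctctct
Chrng (chr1:87205561-87205810, plus strand), with E-boxes at 155, 132 and 75 bases before the start:
Chrng: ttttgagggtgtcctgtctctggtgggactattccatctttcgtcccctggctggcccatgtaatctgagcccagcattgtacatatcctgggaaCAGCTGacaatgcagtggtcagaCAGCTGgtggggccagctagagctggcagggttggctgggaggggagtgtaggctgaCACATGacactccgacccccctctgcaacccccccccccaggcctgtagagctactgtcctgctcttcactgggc

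The largest fall was that of a gene of newly forming fibres. Mymk, myomaker, a membrane protein that myoblasts need to fuse, was at 992, 1211 and 771 at day 4 and at 418, 300.0 and 208 at day 8, a change of -1.72 ± 0.23 (SE, n = 3 per group, adjusted p = 0.00152). Ncam1, an adhesion protein of myoblasts and of fibres without a nerve, went from 1252, 1800 and 1229 to 794, 705 and 583 (-1.03 ± 0.18, adjusted p = 0.0104). They were the 2 called of 21 measured myogenic genes (median -0.20), against 0.192% of all genes. In both genes the highest day 8 array was below the lowest day 4 array. The call of Mymk held with each AREG array left out, and that of Ncam1 was lost without day 4 replicate 2. Myog (-0.47), Myod1 (0.04), Myf5 (-0.27) and Pax7 (-0.10), the transcription factors of the lineage, did not pass, nor did Mymx (-0.21), the second fusion protein.

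Chrng, the fetal gamma subunit of the muscle acetylcholine receptor, which adult synapses replace by the epsilon subunit, was at 238, 324 and 215 at day 4 and at 118, 110 and 107 at day 8, a change of -1.20 ± 0.22 (adjusted p = 0.0136). The day 8 arrays lay close together, and the call was lost without day 8 replicate 2, day 4 replicate 1 or day 4 replicate 2. It was the 1 of 14 synapse genes called; Chrna1 (-0.81, adjusted p = 0.18), Chrnd (-0.68) and Chrne (-0.31) did not pass. The 3 E-boxes in its promoter, searched as CANNTG on both strands, are of the kind that myogenic transcription factors bind; this short motif was in 91.7% of the promoters of genes called lower, 70.7% of those called higher and 72.3% of all. None of 16 genes of the developmental sarcomere passed, with Tnnt2 at -0.99, Myl4 at -0.95, Myh8 at -0.57 and Myh3, embryonic myosin, at -0.41. None of 20 adult fast fibre genes passed either (median -0.05, from -0.27 to 0.26).

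Among the 15 largest falls were also Tubb6, Tubb2b, Dclk1 and Ccdc141. Tubb6, a tubulin of regenerating fibres, went from 886, 1196 and 868 to 622, 394 and 272 (-1.26 ± 0.23, adjusted p = 0.0136). Tubb2b, another tubulin, went from 369, 495 and 317 to 193, 190 and 126 (-1.21 ± 0.19, adjusted p = 0.00454). Dclk1, a kinase that binds microtubules, went from 350, 620 and 339 to 200, 168 and 116 (-1.41 ± 0.24, adjusted p = 0.00896). All day 8 arrays were below all day 4 arrays in each, and the call of Tubb6 was lost without day 8 replicate 2, day 4 replicate 1 or day 4 replicate 2. Ccdc141 fell by 1.43, a call lost without day 8 replicate 2 or day 4 replicate 2, and its 4 other clusters changed by between -1.25 and -0.46. Peg10, an imprinted gene derived from a retrotransposon, had the second largest fall, from 715, 832 and 703 to 277, 254 and 176 (-1.69 ± 0.19, adjusted p = 0.000257); it was the 1 of 12 imprinted genes called.

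Genes of the temporary matrix had the most calls lower of any list, though fewer than the 13 of the same list with PBS. Of 25 measured matrix glycoprotein and cross-linking genes 5 were called lower and none higher (median -0.34), against 0.192% and 0.527% of all genes. Among the 5 was Acta2, a smooth muscle actin that is on the smooth muscle list too. Tnc, tenascin-C, a glycoprotein of healing tissue, was at 332, 637 and 736 at day 4 and at 274, 218 and 116 at day 8, a change of -1.495 ± 0.30 (adjusted p = 0.029), with the gap between groups narrow at day 4 replicate 1. Cthrc1, secreted by activated fibroblasts, went from a mean log2 level of 8.90 ± 0.21 (SD, n = 3) to 7.66 ± 0.39 (-1.25 ± 0.19, adjusted p = 0.00417). Acta2, smooth muscle actin, a mark of myofibroblasts and of vessel smooth muscle, went from 1919, 2315 and 2509 to 1211, 904 and 914 (-1.16 ± 0.17, adjusted p = 0.00368). P4ha3, a collagen prolyl hydroxylase, fell by 1.16 and Thbs2 by 0.72. Lrrc15, a surface protein of activated fibroblasts on none of the lists, fell by 1.09. Acta2 was also the 1 of 14 pericyte and smooth muscle genes called, of which 12 had a change below 0 (median -0.19). On that list Myh11 (-0.30) and Rgs5 (-0.26) did not pass, though the Rgs5 groups did not overlap. Between 2 and 5 of the 25 were called with 1 AREG array left out, and 2 without day 4 replicate 2 or day 4 replicate 3, where Tnc, P4ha3, Thbs2 and Lrrc15 were lost.

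The collagen genes gave no call. All 18 measured collagen genes had a change below 0, with a median of -0.39. Col1a1 was at 2450, 2828 and 3194 at day 4 and at 2170, 1891 and 738 at day 8 (-0.96 ± 0.29, adjusted p = 0.198), and Col3a1 at 1068, 1422 and 1396 and then 1526, 1165 and 392 (-0.54 ± 0.34, adjusted p = 0.629). Replicate 3 was the lowest of the day 8 arrays in 17 of the 18, and for Col3a1 the other 2 arrays lay within or above the day 4 range. Postn, periostin, changed by -0.71 (adjusted p = 0.532), and of its day 8 arrays too only replicate 3 lay below the day 4 range. Prg4, the lubricant of tendon sheaths and joints, fell by 0.96 ± 0.14 (adjusted p = 0.00357) and was the 1 of 10 tendon genes called. All 10 tendon genes were below 0 (median -0.55).

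**Figure D4:**
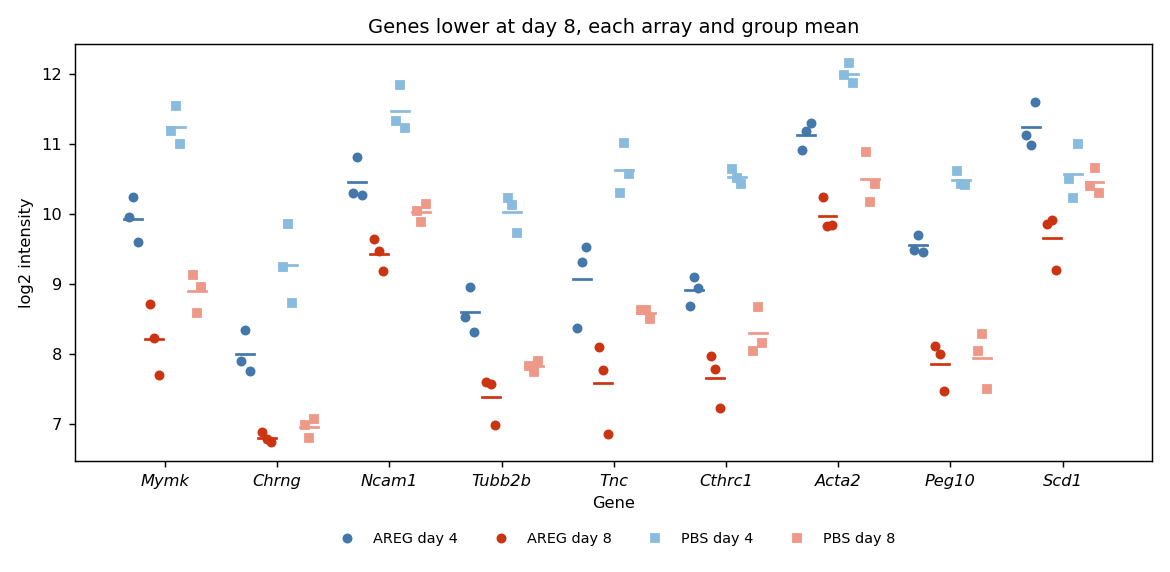
Log2 intensity of 9 genes called lower at day 8 with AREG, in each of the 12 arrays; circles are AREG arrays, squares PBS arrays and bars means of 3 arrays. In all 9 genes the AREG day 8 arrays lie below the AREG day 4 arrays; for Scd1 the PBS groups overlap.

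A part of the falls was of metabolic and signalling genes. Scd1, which makes monounsaturated fatty acids, was at 2230, 2015 and 3102 at day 4 and at 926, 963 and 588 at day 8, a change of -1.58 ± 0.22 (adjusted p = 0.00196). It was the 1 of 17 adipocyte genes called, and Adipoq (-0.23), Fabp4 (0.00) and Plin1 (-0.51) did not pass. Slc37a4, the glucose-6-phosphate transporter, went from 1207, 1406 and 1337 to 725, 702 and 367 (-1.20 ± 0.23, adjusted p = 0.0199), and its call was lost without any day 4 array. The next 3 were chosen after their values were seen. Sgk1, a kinase induced by glucocorticoids and salt, went from 904, 1028 and 902 to 608, 573 and 388 (-0.88 ± 0.16, adjusted p = 0.0136). Deptor, an inhibitor of mTOR, fell by 0.67 and Plpp7, a nuclear membrane protein, by 0.77. In none of these genes did the groups overlap. Hmox1, heme oxygenase, which breaks down heme, rose from 182, 228 and 178 to 345, 283 and 314 (0.68 ± 0.13, adjusted p = 0.0202), the 1 call among 15 heme and iron genes, lost without day 8 replicate 1, day 4 replicate 1 or day 4 replicate 3. Asns, which makes asparagine, fell by 0.63 and was the 1 of 19 amino acid stress genes called; the call was lost without day 8 replicate 2, day 8 replicate 3, day 4 replicate 2 or day 4 replicate 3.

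No member was called in the lists of oxidative phosphorylation (44 measured, median 0.04), fatty acid oxidation (23, 0.07), glycolysis and glycogen (18, -0.27), DNA replication (27, 0.005), mitosis (33, 0.03), endothelium (22, -0.07), fibro-adipogenic progenitors (15, -0.17), lysosome (28, 0.09), neutrophils (16, 0.03), mast cells and eosinophils (13, -0.05), matrix proteases (19, -0.08), Schwann cells (9, -0.04), ribosomal proteins (23, 0.09) or endoplasmic reticulum chaperones (20, 0.05). None of 15 genes of the EGF receptor family and its ligands (median -0.18) and none of 34 immediate early and ERK feedback genes (median 0.00) was called. Both groups received AREG, so a response to it that was alike in both would not appear in this change. Egfr was at 473, 549 and 621 at day 4 and at 569, 501 and 395 at day 8 (-0.17 ± 0.14, adjusted p = 0.708), with overlapping groups, and Hbegf, another ligand, changed by -0.40 (adjusted p = 0.27). Dusp6, a phosphatase induced by ERK, changed by -0.43, Ccn2 by -0.83 (adjusted p = 0.091) and Myc by 0.48. Areg itself was not analysed here.

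Set beside the PBS arrays, the AREG change gave fewer calls, most of them shared; with array quality weights it gave more, 6676 against 1649. Of the 142 genes called with AREG, 108 were called with PBS in the same direction, 83 higher and 25 lower, and none in the opposite one; they were 76.1% of the AREG calls and 23.3% of the PBS calls. The sign was the same in 135 of the 142. Across all genes the 2 changes correlated at 0.581, a description over genes that are not independent. The difference between the AREG and the PBS change was called in 0 of 19752 genes (limma, 0%), and 1160 genes (5.87%) had an unadjusted p under 0.05, of which 32 were among the 142. With array quality weights 2232 genes were called for the difference. The GTPases rose in both, with medians of 2.36 with AREG and 2.72 with PBS, and Iigp1 by 4.52 and 4.42. MHC class I genes had medians of 0.94 and 0.97 and class II genes 1.25 and 1.25. T cell genes had medians of 0.73 and 0.81 with 4 and 12 calls, and cytotoxic genes 0.66 and 0.96 with 3 and 13. Type I interferon genes went the other way, with medians of 0.49 and 0.23 and 8 and 3 calls. So did the other interferon-gamma targets, with medians of 0.80 and 0.68 and 10 and 8 calls. Over all genes 0.527% were called higher with AREG and 1.19% with PBS.

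Several falls began from lower day 4 levels with AREG. As list means on the scale above, the matrix glycoprotein and cross-linking genes were at -0.20, 0.10 and 0.10 at day 4 with AREG. With PBS they were at 0.65, 0.92 and 0.71. The median change of that list was -0.34 with AREG and -0.69 with PBS. Called lower were 5 and 13 of its 25 genes, against 0.192% and 1.15% of all genes. Mymk was at 2323, 2982 and 2041 at day 4 with PBS and fell there by 2.35, to 559, 385 and 496. Chrng was at 606, 921 and 421 and fell by 2.32, Tubb2b by 2.21, Cthrc1 by 2.24 and Peg10 by 2.55. At day 8 with PBS, Chrng was at 126, 111 and 133.9, against 118, 110 and 107 with AREG, while Mymk, at 418, 300.0 and 208 with AREG, was mostly higher with PBS. For Chrng the AREG change minus the PBS change was 1.13 (limma adjusted p = 0.579), for Tubb2b and Cthrc1 0.99 each and for Mymk 0.63 (adjusted p = 0.898). Of the 38 falls 20 were larger with PBS, and of the 104 rises 41 were. These genes were picked by their AREG change, which favours large AREG sizes, so the counts cannot compare the treatments.

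The pan-macrophage genes had a median of 0.63 with AREG and -0.05 with PBS, and as list means on the scale above the 6 PBS arrays were at 0.95, 1.35 and 1.27 at day 4 and at 1.05, 0.94 and 1.51 at day 8. Adgre1 was at 672, 1020 and 819 at day 4 with PBS against 275, 463 and 370 with AREG. The difference of the changes passed for none of the 20 genes, and 3 had an unadjusted p under 0.05. Tendon genes had medians of -0.55 and 0.13, and mitosis genes of 0.03 and -0.38. An unadjusted limma p of the difference under 0.05 was found in 6 of 10 tendon and 12 of 33 mitosis genes, against 5.87% of all genes. It was also found in 7 of 17 adipocyte, 7 of 18 glycolysis and glycogen and 8 of 25 matrix glycoprotein and cross-linking genes. None of these passed after adjustment.

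The 34 genes called with AREG alone, 21 higher and 13 lower, were not shown to differ between treatments. Among them were Ifit3, with changes of 1.67 and 0.85, Irf8 (1.21 and 0.45) and Aif1 (1.14 and 0.40). Of the 7 genes of opposite sign the largest with AREG was Slc37a4, which at day 8 with PBS was at 1317, 775 and 870 against 799, 750 and 910 at day 4 (changes of -1.20 and 0.24, difference -1.44 ± 0.33 SE, adjusted p = 0.557). The others were Sgk1, Plpp7, Deptor, Cacna2d4 and Lrrc4c, with PBS changes between 0.00 and 0.17, and Hmox1. Hmox1 changed by 0.68 with AREG and by -0.30 with PBS, from 347, 434 and 353 to 292, 299 and 326, and its difference of 0.99 ± 0.19 (unadjusted p = 8.54e-05, adjusted p = 0.426) was among the 8 of smallest p. Scd1 changed by -1.58 and -0.12 (difference -1.46, adjusted p = 0.528). At day 4 the AREG arrays lay wholly above the PBS arrays for Slc37a4 and Sgk1 and wholly below them for Hmox1, and for Scd1 they overlapped at 2015 with AREG and 2045 with PBS. The share of all genes without overlap at day 4 was not counted. Slc37a4, Sgk1 and Hmox1 were picked for changes of opposite sign, which favours such a gap, so it is no added support.

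The other 7 genes of smallest p for the difference were Stxbp4, BC023105, Klhl33, Gimap5, Jak2, Cntfr and Lrp2bp, with adjusted p from 0.426 to 0.486. Stxbp4 was at 552, 737 and 531 and then 531, 547 and 394 with AREG, and at 347, 366 and 356 and then 761, 663 and 646 with PBS. Its changes were -0.31 and 0.95, and the difference was -1.26 (unadjusted p = 2.5e-05). Jak2, the kinase of the interferon-gamma receptor among others, changed by -0.25 and 0.61 and Cntfr, a receptor chain for CNTF, by -0.19 and 0.66. Gimap5 changed by 0.13 and 1.09. In BC023105 both treatments rose, by 1.37 and 2.20, from day 4 arrays of 3297, 3521 and 3052 with AREG and 1678, 1869 and 1699 with PBS.

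**Figure D5:**
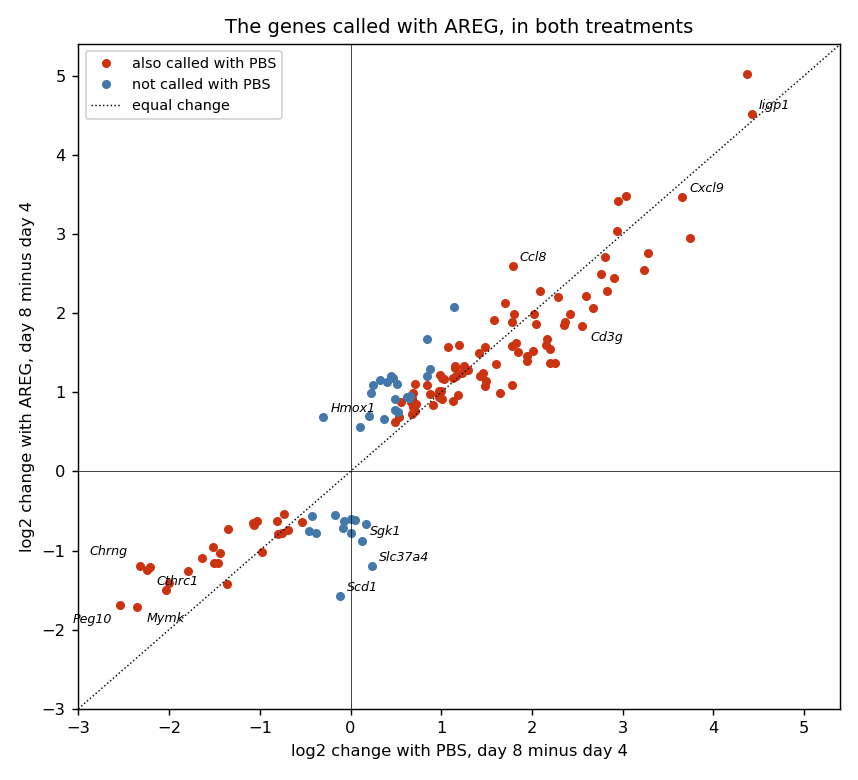
Log2 change from day 4 to day 8 of the 142 genes called with AREG, with PBS on the x axis and with AREG on the y axis, 1 point per gene; red points were also called with PBS (108) and blue points were not (34), and the dotted line marks equal change. Most points lie near the line in the upper right and lower left, and Scd1, Slc37a4 and Sgk1 lie near 0 on the PBS axis.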

How the data were processed

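RNA of whole TA muscle was extracted with TRIzol and hybridised, per the labels, to whole-transcript mouse arrays of Affymetrix. The authors processed the arrays with Affymetrix Power Tools and RMA, per the submitters' processing notes; no source used here gives their versions or the genome build. Values were deposited as intensity, linear and between 4.65 and 21512.5, and log2 of the deposited intensity was used with no pseudocount and no filter. RMA equalises the arrays and compresses differences between dim genes. The precision is limited by the number of arrays, 3 per group.

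Gene symbols came from the array's gene table. The gene order and older symbols came from RefSeq (GRCm38.p6), and 861 of 939 list entries were measured. The fit was made with limma 3.58.1 under R 4.3.3 (4 group means over 12 arrays, 8 residual and 7.1 prior degrees of freedom), and p-values are two-sided and adjusted over 19752 genes. A fold is 2 raised to the difference of mean log2 values. SE is that of the fit. No single value was permuted, since the smallest exact p for groups of 3 is 0.1. The fit was tested on simulated data. The comparison, the gene lists and the tests were chosen with earlier results of these data known.

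Named genes are the 15 largest called rises and the 15 largest called falls (no overlap between groups; predicted, Rik, snoRNA, receptor segment and olfactory genes left out), up to 6 called members of each list with uncalled members as values, the 8 genes of smallest p for the difference, and Foxp3, Egfr and Hbegf; called list members past the sixth are named outside this rule, and others are said to be chosen after their values were seen. Alternatives were the 6 arrays alone, the replicate number as a block, trend and robust options, array weights, a filter on dim genes, repeated quantile normalization, centring, the mean over a gene's clusters, a pseudocount of 32 and leaving out each array.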

Additional observations from a re-analysis of the deposited data

How the results depend on the processing

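The AREG count of 142 was 86 with its 6 arrays fitted alone, 91 with a pseudocount of 32 and 6676 (35.6% higher) with array quality weights, which gave day 8 replicate 2 a weight of 7.43 and replicate 3 one of 0.321. With 1 array left out it ran from 79 (without day 4 AREG replicate 1) to 458 (without day 8 AREG replicate 3), and other AREG arrays moved it to 83 (day 4 replicate 3) and 91 (day 8 replicate 2). The PBS count of 463 was 759 with 6 arrays and 1649 with weights, and ran from 209 to 719 with 1 array left out. The count for the difference was 2232 with weights and 0 in the other settings. Without both arrays that stood apart, a setting chosen after seeing the data, the AREG count was 415 and the PBS count 1057. The cause of these moves was not tested beyond the arrays used. With the replicate block the counts were 141, 486 and 0, and 125 of the AREG calls were shared with the fit without it. AREG arrays of the same number had residual correlations of -0.024, 0.262 and -0.027, and those of different numbers from -0.279 to 0.172. So few values cannot decide whether the numbers pair the arrays, and the labels do not say. Of 66 named called genes 31 passed in all settings that tested them, and none reversed. Day 8 against day 4 is also Foxp3-DTR+ against Foxp3-DTR- in every setting. Of the 142 called genes 17 were below the median level of all genes.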
